A study of Mus musculus with 6 samples.

Results

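The interferon-stimulated genes described here are 36 mouse genes, set as a list by gene name, whose transcription is known to be induced by interferons. All 36 were found among the 22564 protein-coding genes of the mRNA table, 35 by gene symbol and Ifit3b by its Ensembl identifier (ENSMUSG00000062488), because the table gives it under an older name. The mRNA was measured in 3 libraries from lacrimal glands of AQP5-/- mice, in which the water channel gene Aqp5 had been disrupted with CRISPR/Cas9, and in 3 libraries from lacrimal glands of AQP5+/+ mice. All mice were C57BL/6 and 6 months old, and the labels name no treatment. The knockout is constitutive, so every cell type of the gland and every other organ lacks the channel, and the sources do not state the sex of the animals or whether animals were pooled for a library. The p-values therefore measure the spread between these libraries.

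Interferons are cytokines released after viral or other nucleic acid is sensed, and by activated lymphocytes. Type I and type III interferons act through a complex that holds STAT2 and IRF9 and binds the interferon-stimulated response element (ISRE) of target genes, and interferon gamma acts through the gamma activated site (GAS). Many of the induced genes encode proteins that sense viral RNA, degrade it or block its translation, and raised levels of such transcripts are a known feature of autoimmune lacrimal and salivary gland disease.

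Expression was given as FPKM, fragments scaled for transcript length and by a library factor, so levels can be set side by side between genes. Aqp5 itself was listed at 0.378, 0.177 and 0.170 FPKM in the AQP5-/- libraries, against 154, 89.0 and 142 FPKM in the AQP5+/+ libraries. The libraries held between 11244579 and 13723134 estimated fragments. The library factor did not follow these totals alone. In the deposited counts it was 0.916 in AQP5+/+ replicate 1 and 1.19 in AQP5+/+ replicate 3, which held 11293172 and 11244579 estimated fragments. The 3 AQP5-/- libraries and AQP5+/+ replicate 2 held transcripts of 4 Y-linked genes (49.7, 58.0 and 52.1 FPKM summed in AQP5-/-, and 33.0 FPKM in AQP5+/+ replicate 2), whereas AQP5+/+ replicates 1 and 3 held 0.320 and 0.185 FPKM. AQP5+/+ replicate 2 also carried skeletal muscle transcripts, with 52.2 FPKM summed over 5 markers, against at most 1.99 FPKM in any other library. Log2 fold changes are therefore given below also without this library where it moved them by about 1.5 times or more. Without it, genotype and Y-linked transcripts coincide over the libraries left. Differences that go with either cannot then be told apart.

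Promoter sequences were matched for 25 of the 36 members in RefSeq (GRCm38.p6), each covering 250 bases before to 50 bases after the annotated start. The ISRE core, spelled as GAAA, any 2 bases and GAAA again and searched on both strands, was found in 15 of the 25 (60.0%), against 3.99% of the promoters of 27025 genes. The GAS, spelled TTCNNNGAA and searched on both strands, was found in 5 of the 25 (20%), against 9.55% of all promoters. In Bst2 the GAS match overlapped the first ISRE match. The following stretches carry ISRE matches in capitals, with up to 20 bases on each side and only bases before the start, written along the gene's own strand. They are shown because the ISRE is the element bound by the STAT2 and IRF9 complex, in a member whose groups did not overlap (Bst2), in members high in AQP5-/- replicate 3 and AQP5+/+ replicate 2 (Isg15, Ifit1, Irgm1), and in paralog pairs whose reads are hard to separate (Ifit3 with Ifit3b, Oas1a with Oas1g).
Bst2, chr8:71537567-71537622, minus strand: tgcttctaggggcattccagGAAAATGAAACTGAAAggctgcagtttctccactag
Isg15, chr4:156200855-156200916, minus strand: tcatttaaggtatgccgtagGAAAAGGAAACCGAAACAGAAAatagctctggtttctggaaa
Ifit1, chr19:34640765-34640833, plus strand: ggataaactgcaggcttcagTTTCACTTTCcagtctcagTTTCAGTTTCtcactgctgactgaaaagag
Irgm1, chr11:48871421-48871470, minus strand: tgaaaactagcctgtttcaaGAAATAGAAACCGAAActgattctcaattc
Ifit3, chr19:34583353-34583436, plus strand: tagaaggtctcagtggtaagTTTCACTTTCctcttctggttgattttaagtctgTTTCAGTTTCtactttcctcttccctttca
Ifit3b, chr19:34607749-34607832, plus strand: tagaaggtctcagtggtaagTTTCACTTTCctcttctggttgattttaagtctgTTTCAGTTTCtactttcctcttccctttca
Oas1a, chr5:120907526-120907565, minus strand: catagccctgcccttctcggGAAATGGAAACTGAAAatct
Oas1g, chr5:120887614-120887651, minus strand: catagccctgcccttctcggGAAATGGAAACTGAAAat

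The capitals in Ifit1, Ifit3 and Ifit3b hold the element on the opposite strand. The stretches of Ifit3 and Ifit3b were identical, and those of Oas1a and Oas1g differed only in how far they reach toward the start. The other members with an ISRE match were Stat2, Ddx58 (after the start), Oas3, Rsad2, Gbp2, Gbp3 and Igtp, and GAS matches were found in Bst2, Ifit2, Igtp, Isg20 and Oas1a. Isg20 and Epsti1, both past the threshold used below, had no ISRE match in this window. Dhx58, Zbp1, Usp18, Oas2, Mx1, Mx2, Gbp4, Gbp6, Iigp1, Ifi27l2a and Rtp4 were not searched. A match is a description of the letters and not a measured binding site.

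**Figure D1:**
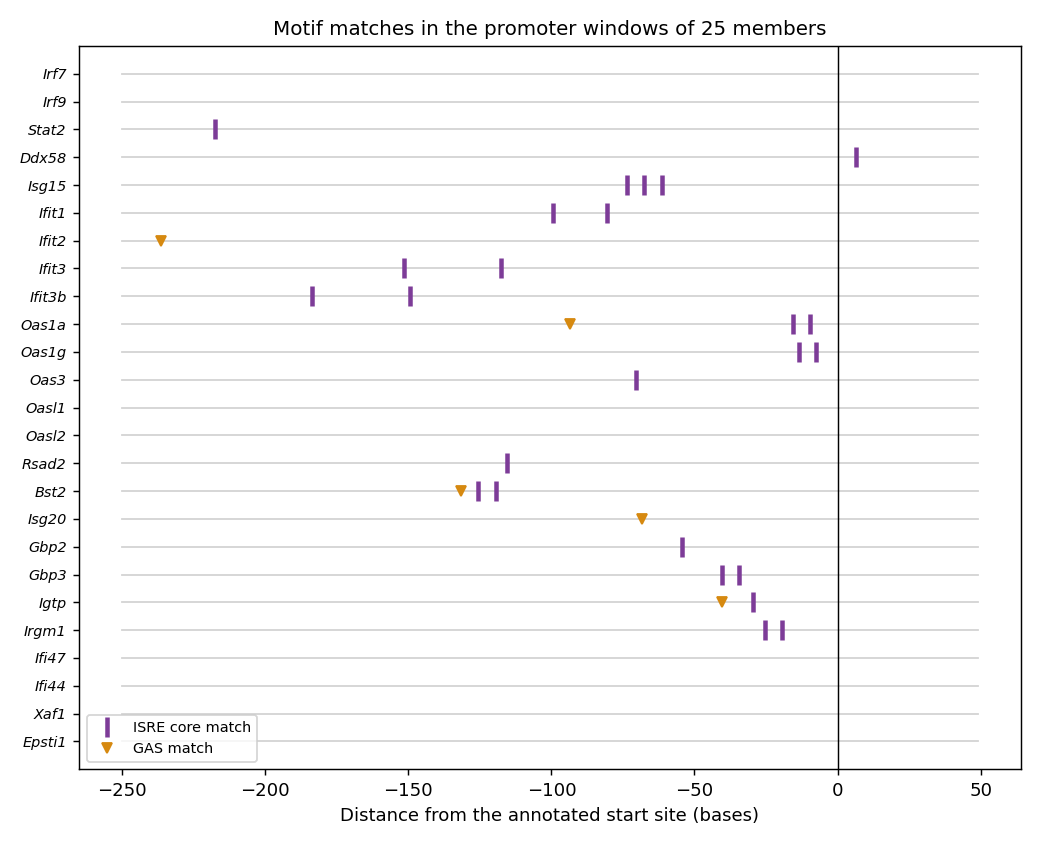
Motif matches in the promoter windows of 25 members. Each grey line is 1 promoter, the x axis is the distance in bases from the annotated start site, bars mark the centres of ISRE core matches and triangles those of GAS matches. ISRE matches lay in 15 of the 25 windows and before the start in all but Ddx58.

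The members were expressed at modest levels. Averaged over the 6 libraries, Ifi27l2a was the highest at 27.2 FPKM, followed by Isg20 at 18.2, Ddx58 at 11.5, Irgm1 at 10.03 and Stat2 at 9.73 FPKM. The median of the 34 tested members was 2.43 FPKM, below the 5.55 FPKM of all 11772 genes tested. Oas3 (0.248, 0.727 and 0.668 FPKM in AQP5-/-, against 0.146, 0.533 and 0.217 in AQP5+/+) and Mx2 were under the mean of 0.5 FPKM required for testing. Mx2 reached 0.260 FPKM in 1 AQP5-/- library (replicate 1) and 0.186 FPKM in 1 AQP5+/+ library (replicate 3), with values of effectively 0 in the others. Single members rested on 0 to 1355 estimated fragments per library, so the weaker ones carry large counting error.

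**Figure D2:**
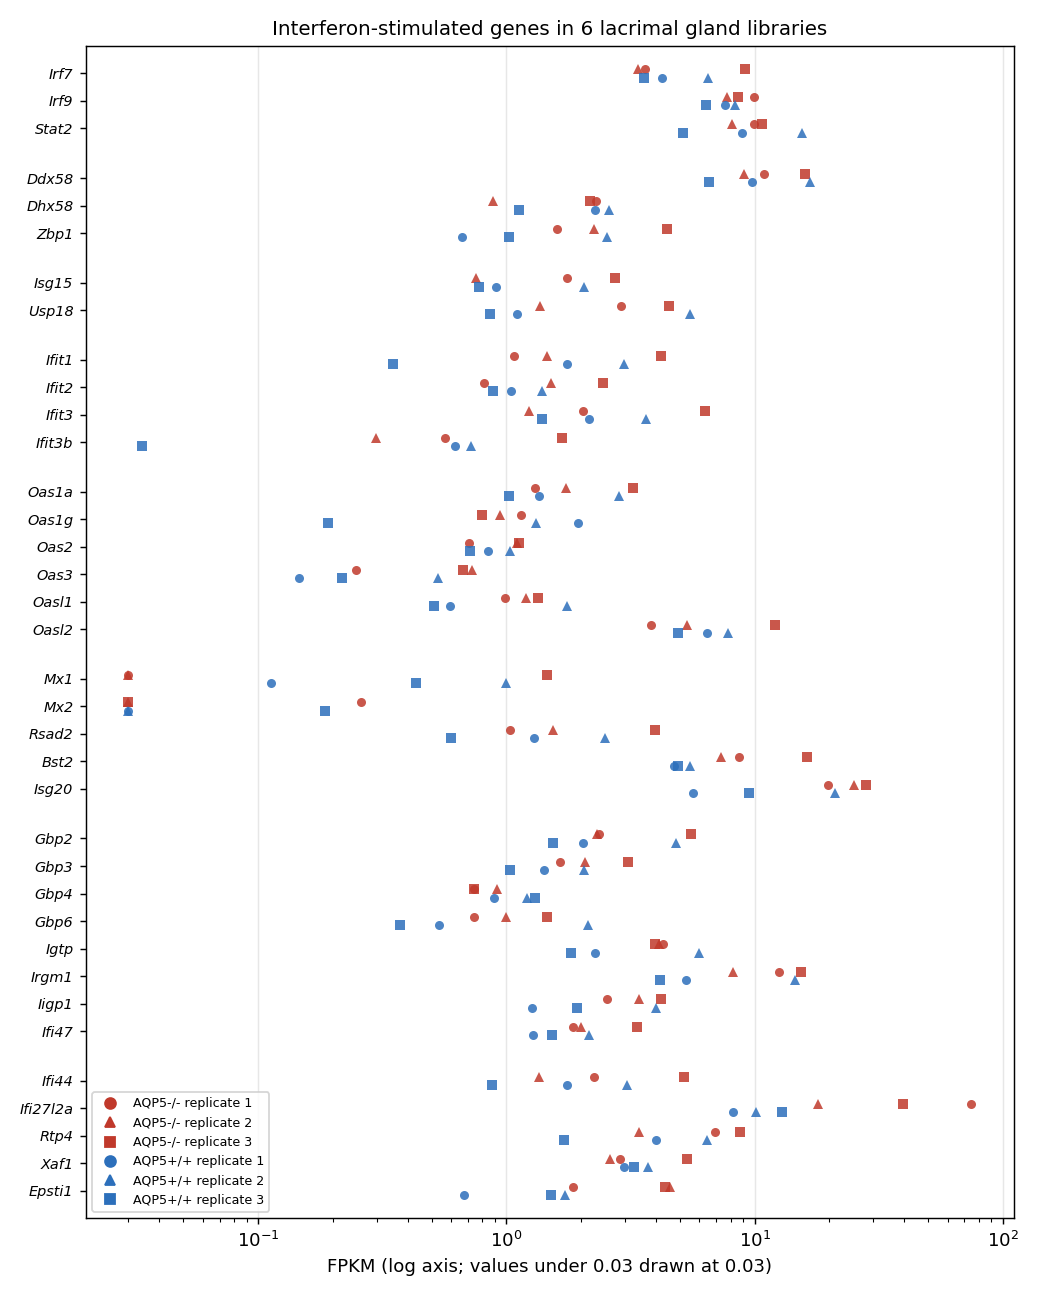
FPKM of the 36 members in each library, on a log axis, with 1 row per gene and members grouped by role. Red symbols, drawn slightly higher in each row, are AQP5-/- libraries and blue symbols are AQP5+/+ libraries, and the shape gives the replicate number. Red squares (AQP5-/- replicate 3) and blue triangles (AQP5+/+ replicate 2) lie to the right in most rows.

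Between the genotypes, 3 of the 34 tested members, Ifi27l2a, Epsti1 and Isg20, were higher in AQP5-/- glands at the threshold used in the paper, a fold change of at least 2 with an unadjusted p under 0.05, and 0 were lower. Over all genes tested, 1.16% were called higher and 0.883% lower by this rule. After Benjamini-Hochberg adjustment over all 11772 genes, limma called 0 members, with a smallest adjusted p of 0.43, against 0.017% of all genes. At an unadjusted p under 0.05, 4 members were higher (the 3 above and Bst2) and 0 lower, against 3.27% and 8.12% of all genes. At an adjusted p under 0.05, edgeR on estimated fragments called 0 members and 0.017% of all genes, and DESeq2 called 1 member, Ifi27l2a, and 1.27% of all genes. Fold changes here are differences of log2(FPKM + 0.5), AQP5-/- minus AQP5+/+, which understates those of the weakest genes. They were above 0 for 31 of the 34 members, with a median of 0.32, while 33.0% of all genes were above 0, with a median of -0.12. In these bulk samples, a change in the number of cells that express a gene and a change in its level per cell cannot be told apart.

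**Figure D3:**
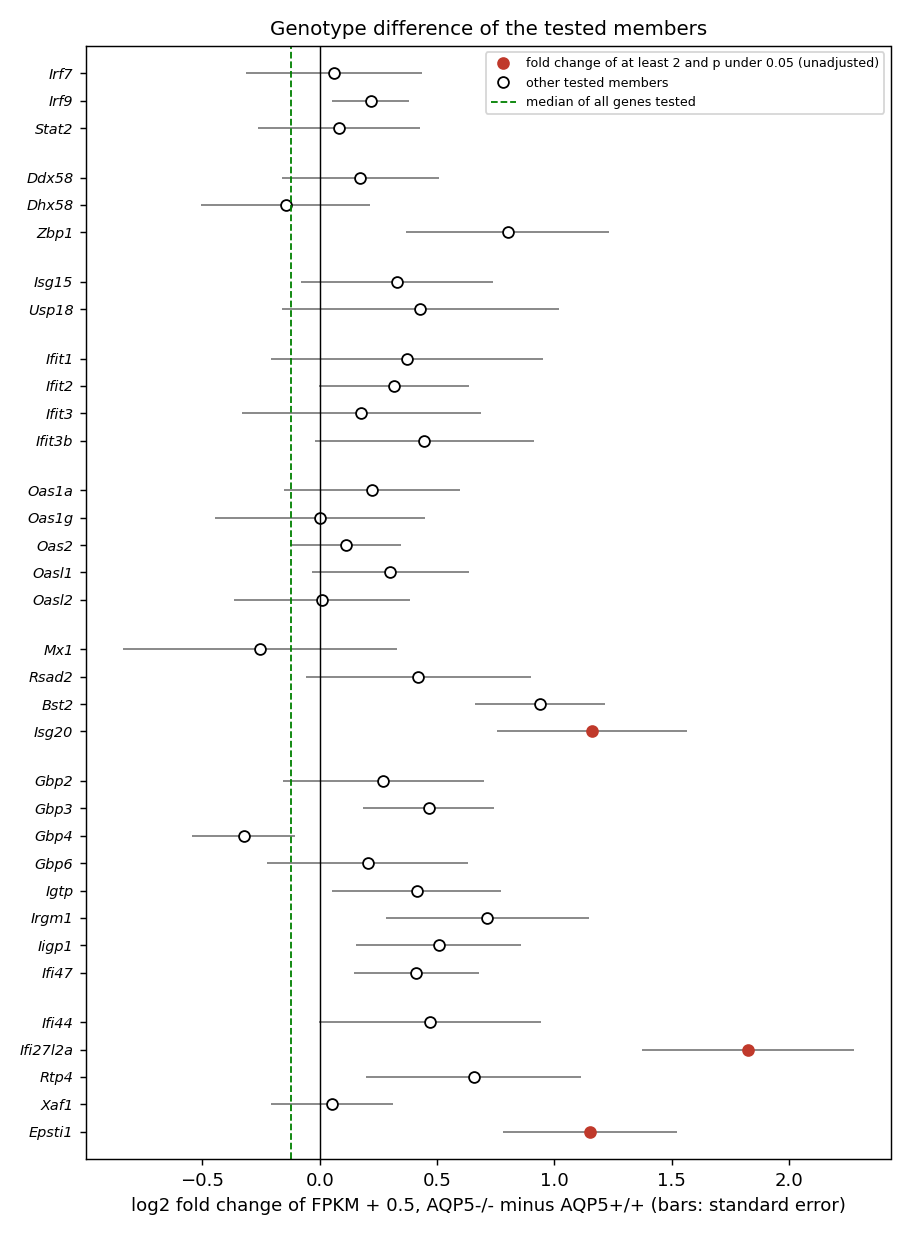
log2 fold change of FPKM + 0.5, AQP5-/- minus AQP5+/+, of the 34 tested members, grouped by role. Points are limma estimates from 3 libraries per genotype, horizontal bars are standard errors, filled points passed the paper's threshold, and the dashed line is the median of all genes tested (-0.12). Ifi27l2a stands farthest to the right at 1.83.

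Ifi27l2a (ENSMUSG00000079017, chr12:103433873-103443680, mm10) encodes a small membrane protein that is among the transcripts most strongly induced by type I interferon. It had 74.7, 17.97 and 39.4 FPKM in the AQP5-/- libraries, against 8.21, 10.2 and 12.9 FPKM in the AQP5+/+ libraries. Every AQP5-/- library was above every AQP5+/+ library, AQP5-/- replicate 1 was the highest and AQP5-/- replicate 2 the nearest to the controls. It averaged 44.1 ± 28.7 FPKM in AQP5-/- glands and 10.4 ± 2.36 FPKM in AQP5+/+ glands (SD, n = 3 each), a log2 fold change of 1.83 (SE 0.45, limma adjusted p = 0.43). With DESeq2 the adjusted p was 0.00219, and over all alternatives it lay between 0.00219 and 0.9996. The gene stayed past the unadjusted threshold in all 18 alternatives, with log2 fold changes from 1.34 to 2.35. The related gene Ifi27 is listed at the same locus on the opposite strand, with a mean of 129 FPKM and a log2 fold change of 0.04. How the counting split reads between Ifi27l2a and Ifi27 was not stated, so the separate values of Ifi27l2a are uncertain.

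Epsti1 (ENSMUSG00000022014, chr14:77899978-78002656), an interferon-induced gene first described in epithelium next to stroma, had 1.85, 4.55 and 4.36 FPKM in AQP5-/- glands, against 0.673, 1.72 and 1.52 FPKM in AQP5+/+ glands. The groups did not overlap, but AQP5-/- replicate 1 was close to AQP5+/+ replicate 2. The log2 fold change was 1.15 (SE 0.37, limma adjusted p = 0.43). Epsti1 was also the host of the 1 circRNA that came from a member among the 2541 circRNAs of the circRNA table. That circRNA (chr14:77927170-77939935) had 0, 0 and 2 junction reads in AQP5-/- libraries and 0 in each AQP5+/+ library, too few for a comparison.

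Isg20 (ENSMUSG00000039236, chr7:78913424-78920362), a 3'-to-5' exonuclease that degrades single-stranded RNA, had 19.8, 25.3 and 28.0 FPKM in AQP5-/- glands, against 5.67, 21.1 and 9.52 FPKM in AQP5+/+ glands. AQP5+/+ replicate 2 lay above AQP5-/- replicate 1, so the groups overlapped. The log2 fold change was 1.16 (SE 0.41, limma adjusted p = 0.43). Bst2 (tetherin, ENSMUSG00000046718, chr8:71534264-71537437), which holds budding virus at the cell surface, had 8.64, 7.32 and 16.3 FPKM in AQP5-/- glands, against 4.75, 5.50 and 4.92 FPKM in AQP5+/+ glands. Its groups did not overlap and its AQP5+/+ libraries were close together, but its log2 fold change of 0.94 (SE 0.28, limma adjusted p = 0.43) was just under 2-fold. In all, 3 members (Ifi27l2a, Epsti1 and Bst2) had every AQP5-/- library above every AQP5+/+ library, against 3.86% of all genes, and 0 had every AQP5-/- library below, against 11.1%.

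**Figure D4:**
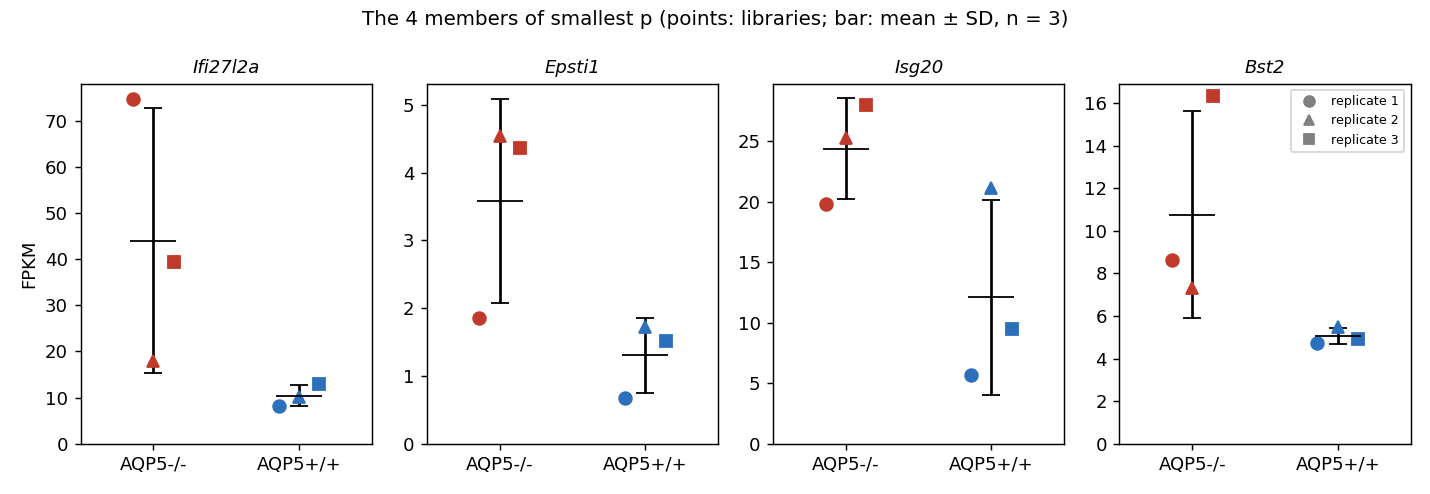
FPKM of the 4 members with the smallest p in each library, with AQP5-/- left of AQP5+/+ and axes starting at 0. Points are libraries, with the shape giving the replicate, and bars are mean ± SD (n = 3). The groups are apart for Ifi27l2a, Epsti1 and Bst2, and AQP5+/+ replicate 2 reaches into the AQP5-/- range for Isg20.

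Apart from that of Ifi27l2a, these calls depended on single libraries. Without AQP5+/+ replicate 2, 7 members passed the paper's threshold (Ifi27l2a, Epsti1, Isg20, Zbp1, Usp18, Irgm1 and Rtp4), while the share of all genes past it as higher was 2.40%, and 3 members had an adjusted p under 0.05 with limma, namely Isg20 (0.0105), Igtp (0.0335) and Irgm1 (0.0389). Over their alternatives, the adjusted p-values of these 3 genes lay between those values and 0.9996. Leaving out that library also moved the number of genes at an adjusted p under 0.05 over the whole table to 917 (7.79%), against 2 with all 6 libraries. Because genotype and Y-linked transcripts coincide without AQP5+/+ replicate 2, the part of each in these counts cannot be told apart. Without AQP5-/- replicate 3 or without AQP5+/+ replicate 1, Ifi27l2a alone remained past the paper's threshold, and the shares of all genes past it as higher were 0.892% and 0.357%. Isg20 lost the call without AQP5-/- replicate 2 or 3 or AQP5+/+ replicate 1 or 3 (unadjusted p from 0.057 to 0.064 with limma). Epsti1 lost it without AQP5-/- replicate 2 or 3 or AQP5+/+ replicate 1 (unadjusted p from 0.052 to 0.057 with limma). Without single libraries, their log2 fold changes fell to as low as 0.74 for Isg20 and 0.87 for Epsti1, also under 2-fold.

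The members also shared a pattern over the libraries. AQP5-/- replicate 3 was the highest library for 22 of the 34 tested members, against 11.5% of all genes, and AQP5+/+ replicate 2 was the highest for 7, against 6.35%. AQP5+/+ replicate 3 was the lowest for 17, against 11.5%, and AQP5+/+ replicate 2 was the lowest for 0. As deviations from each gene's own mean on the log2 scale, the median member stood at -0.07, -0.09 and 0.77 in AQP5-/- replicates 1, 2 and 3, and at -0.24, 0.43 and -0.59 in AQP5+/+ replicates 1, 2 and 3. The corresponding medians of all genes lay between -0.15 and 0.15. The members thus stood high in 1 library of each genotype and low in AQP5+/+ replicate 3. Summed over the 36 members, FPKM was 201, 137 and 243 in AQP5-/- glands, against 96.9, 176 and 85.3 in AQP5+/+ glands, and without Ifi27l2a it was 126, 119 and 203, against 88.7, 166 and 72.4.

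**Figure D5:**
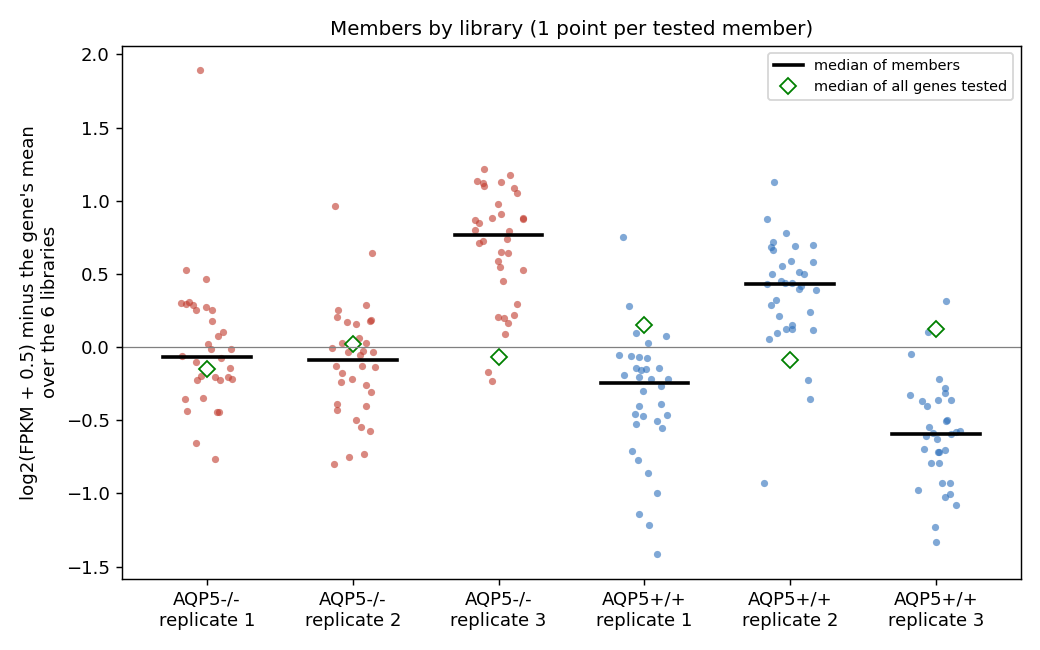
Deviation of each tested member from its own mean over the 6 libraries, in log2(FPKM + 0.5), by library, with AQP5-/- left of AQP5+/+. Points are members (34 per library), black lines their medians and green diamonds the medians of all genes tested. The members are raised in AQP5-/- replicate 3 (median 0.77) and AQP5+/+ replicate 2 (median 0.43).

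Within the AQP5+/+ group, replicate 2 was above both other libraries for 31 of the 34 members, against 18.2% of all genes, and exceeded their mean by a median of 0.96 on the log2 scale (all genes, -0.23). Within the AQP5-/- group, replicate 3 was above both other libraries for 27 members, against 30.5% of all genes, with a median excess of 0.73 (all genes, 0.00). Set against AQP5+/+ replicates 1 and 3, the mean of the AQP5-/- libraries was higher for 33 of the 34 members, with a median log2 difference of 0.66 (all genes, -0.20), and all 3 AQP5-/- libraries were above both for 15 members, against 9.73% of all genes. Set against AQP5+/+ replicate 2, the AQP5-/- mean was higher for only 10 of the 34, with a median log2 difference of -0.30 (all genes, 0.02). All 3 AQP5-/- libraries were above AQP5+/+ replicate 2 for 3 members, against 24.0% of all genes, and below it for 9, against 19.3%. AQP5+/+ replicate 2 is the AQP5+/+ library that shares Y-linked transcripts with the AQP5-/- libraries, so a term for these transcripts left that library alone as the comparison. With that term the members' median log2 fold change was -0.30, Ifi27l2a was the 1 member past the threshold (0.501% of all genes were higher by it), and the log2 fold changes of Isg20 and Epsti1 were 0.19 and 0.80. The part of the Y-linked and muscle transcripts in the members' difference was not tested beyond this.

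Among the transcription factors, STAT2 and IRF9 form the complex that binds the ISRE, and IRF7 drives type I interferon genes. Stat2 had 9.97, 8.12 and 10.7 FPKM in AQP5-/- glands, against 8.92, 15.6 and 5.13 FPKM in AQP5+/+ glands (log2 fold change 0.08, SE 0.34, limma adjusted p = 0.93). Irf9 had 9.90, 7.73 and 8.58 FPKM in AQP5-/- glands, against 7.63, 8.38 and 6.37 FPKM in AQP5+/+ glands (log2 fold change 0.22, SE 0.16, limma adjusted p = 0.56). AQP5+/+ replicates 2 and 3 held the highest and the lowest Stat2 level of all libraries, while Irf9 varied little. Irf7 ranged from 3.39 to 9.14 FPKM in AQP5-/- glands, against 3.57 to 6.504 FPKM in AQP5+/+ glands, with a log2 fold change of 0.06, and none of the 3 factors passed the threshold. Without AQP5+/+ replicate 2, the log2 fold changes were 0.46 for Stat2 and 0.29 for Irf7.

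Of the nucleic acid sensors, Ddx58 (RIG-I) and Dhx58 (LGP2) recognise viral RNA in the cytoplasm and ZBP1 binds left-handed nucleic acid. Ddx58 had 10.9, 9.08 and 15.99 FPKM in AQP5-/- glands, against 9.81, 16.7 and 6.55 FPKM in AQP5+/+ glands (log2 fold change 0.17, SE 0.34, limma adjusted p = 0.83). Zbp1 had 1.60, 2.25 and 4.43 FPKM in AQP5-/- glands, against 0.663, 2.55 and 1.02 FPKM in AQP5+/+ glands (log2 fold change 0.80, SE 0.43, limma adjusted p = 0.46). Zbp1 was lower in AQP5+/+ replicates 1 and 3 than in any AQP5-/- library, but AQP5+/+ replicate 2 was above 2 of the 3 AQP5-/- libraries. Its scaled count per FPKM differed by up to 2.35 times between libraries, so its fold change is uncertain. Its estimated fragments were 41, 50 and 97 in AQP5-/- glands, against 33, 74 and 20 in AQP5+/+ glands. Dhx58 was at 0.880 to 2.31 FPKM in AQP5-/- glands, against 1.12 to 2.60 FPKM in AQP5+/+ glands, with a log2 fold change of -0.15. Without AQP5+/+ replicate 2, the log2 fold changes were 0.51 for Ddx58, 1.20 for Zbp1 and 0.04 for Dhx58.

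The ISG15 system comprises the ubiquitin-like protein ISG15 and USP18, the protease that removes it and that also dampens the type I interferon receptor. Isg15 had 1.75, 0.753 and 2.75 FPKM in AQP5-/- glands, against 0.913, 2.06 and 0.777 FPKM in AQP5+/+ glands (log2 fold change 0.33, SE 0.41, limma adjusted p = 0.72). Usp18 had 2.89, 1.37 and 4.53 FPKM in AQP5-/- glands, against 1.102, 5.48 and 0.861 FPKM in AQP5+/+ glands (log2 fold change 0.43, SE 0.59, limma adjusted p = 0.75). Both genes were high in AQP5-/- replicate 3 and AQP5+/+ replicate 2, and the range within the AQP5+/+ group exceeded the difference between the genotype means. Without AQP5+/+ replicate 2, the log2 fold changes were 0.64 for Isg15 and 1.102 for Usp18. Isg15 rested on 7 to 33 estimated fragments per library.

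The IFIT proteins bind viral RNA and hinder its translation. Ifit3 had 2.05, 1.23 and 6.30 FPKM in AQP5-/- glands, against 2.15, 3.64 and 1.39 FPKM in AQP5+/+ glands (log2 fold change 0.18, SE 0.51, limma adjusted p = 0.89). Ifit1 had 1.08, 1.46 and 4.20 FPKM in AQP5-/- glands, against 1.76, 2.98 and 0.350 FPKM in AQP5+/+ glands (log2 fold change 0.37, SE 0.58, limma adjusted p = 0.78). All 4 genes, Ifit2 and Ifit3b included, were highest in AQP5-/- replicate 3, and each was higher in AQP5+/+ replicate 2 than in the other AQP5+/+ libraries. The summed level of the 4 was 4.51, 4.502 and 14.6 FPKM in AQP5-/- glands, against 5.57, 8.73 and 2.66 FPKM in AQP5+/+ glands. The log2 fold changes without AQP5+/+ replicate 2 were 0.82 for Ifit1, 0.47 for Ifit3 and 0.67 for Ifit3b (0.45 with it). Ifit3 and Ifit3b are near-identical copies, and how the counting split their reads was not stated, so their separate values are uncertain.

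The OAS enzymes make oligoadenylates that activate an RNA-cleaving nuclease when they meet double-stranded RNA, and OASL1 and OASL2 are related proteins. Oasl2, the most abundant of the 6, had 3.84, 5.35 and 12.1 FPKM in AQP5-/- glands, against 6.45, 7.82 and 4.93 FPKM in AQP5+/+ glands (log2 fold change 0.01, SE 0.38, limma adjusted p = 0.99). Oas1a had 1.301, 1.73 and 3.24 FPKM in AQP5-/- glands, against 1.36, 2.85 and 1.02 FPKM in AQP5+/+ glands (log2 fold change 0.22, SE 0.38, limma adjusted p = 0.80). In both genes the AQP5-/- libraries spanned the whole range of the AQP5+/+ libraries or nearly so, through replicate 3. The log2 fold changes of Oas1g, Oas2 and Oasl1 were 0.00, 0.11 and 0.30, and none of the 5 tested members passed the threshold. The values without AQP5+/+ replicate 2 were 0.55 for Oas1a, 0.16 for Oas1g, 0.20 for Oas2, 0.67 for Oasl1 and 0.15 for Oasl2. Oas1a and Oas1g are close paralogs, so their separate values are uncertain. Oas1g had 1.15, 0.946 and 0.796 FPKM in AQP5-/- glands, against 1.95, 1.32 and 0.191 FPKM in AQP5+/+ glands. Its lowest AQP5-/- level was in replicate 3 by FPKM. By estimated fragments (29, 9 and 23 in AQP5-/- replicates 1, 2 and 3) it was in replicate 2, so the order is uncertain.

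Among the other antiviral effectors, beside Isg20 and Bst2, viperin (Rsad2) makes a nucleotide analogue that stops viral RNA synthesis and the Mx GTPases trap viral nucleoprotein. Rsad2 was at 1.04, 1.55 and 3.98 FPKM in AQP5-/- glands, against 1.296, 2.49 and 0.601 FPKM in AQP5+/+ glands, again with its extremes in AQP5-/- replicate 3 and AQP5+/+ replicate 3, and a log2 fold change of 0.42, or 0.78 without AQP5+/+ replicate 2. Mx1 was at effectively 0 in AQP5-/- replicate 2 and at 0.0112 and 1.46 FPKM in AQP5-/- replicates 1 and 3, against 0.113, 0.994 and 0.433 FPKM in AQP5+/+ glands. Its log2 fold change was -0.26 from FPKM but 1.06 with edgeR and 1.04 with DESeq2 on estimated fragments, and 0.0713 from FPKM without AQP5+/+ replicate 2, so no direction is given. Mx1 is annotated in RefSeq as a transcribed pseudogene in the reference strain, and the table gives Mx1 and Mx2 the same locus on opposite strands.

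The interferon-inducible GTPases include the guanylate-binding proteins (Gbp genes) and the immunity-related GTPases (Irgm1, Igtp, Iigp1, Ifi47), which act on membranes around intracellular microbes and are known chiefly as targets of interferon gamma. Irgm1 had 12.6, 8.18 and 15.4 FPKM in AQP5-/- glands, against 5.30, 14.6 and 4.17 FPKM in AQP5+/+ glands (log2 fold change 0.71, SE 0.43, limma adjusted p = 0.49). Igtp had 4.27, 4.12 and 3.99 FPKM in AQP5-/- glands, against 2.29, 5.99 and 1.82 FPKM in AQP5+/+ glands (log2 fold change 0.41, SE 0.36, limma adjusted p = 0.61). The 3 AQP5-/- libraries were nearly equal for Igtp, and the AQP5+/+ libraries lay on both sides of them.

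Gbp3 had 1.64, 2.07 and 3.10 FPKM in AQP5-/- glands, against 1.41, 2.05 and 1.04 FPKM in AQP5+/+ glands (log2 fold change 0.46, SE 0.28, limma adjusted p = 0.49). Iigp1 had 2.55, 3.42 and 4.18 FPKM in AQP5-/- glands, against 1.27, 4.03 and 1.93 FPKM in AQP5+/+ glands (log2 fold change 0.51, SE 0.35, limma adjusted p = 0.53). In both genes AQP5+/+ replicate 2 lay within the AQP5-/- range while the other AQP5+/+ libraries lay below it. Ifi47 had 1.85, 2.001 and 3.36 FPKM in AQP5-/- glands, against 1.29, 2.16 and 1.53 FPKM in AQP5+/+ glands (log2 fold change 0.41, SE 0.27, limma adjusted p = 0.51). Gbp4 departed from the pattern, with 0.739, 0.919 and 0.738 FPKM in AQP5-/- glands, against 0.888, 1.21 and 1.301 FPKM in AQP5+/+ glands (log2 fold change -0.32, SE 0.22, limma adjusted p = 0.52). All 3 AQP5-/- libraries were above AQP5+/+ replicates 1 and 3 for 7 of the 8 GTPases, the exception being Gbp4. The same held for 8 of the other 26 tested members and for 9.73% of all genes. AQP5+/+ replicates 1 and 3 held almost none of the Y-linked transcripts present in every AQP5-/- library. Gbp2 and Gbp6 had log2 fold changes of 0.27 and 0.20, and none of the 8 passed the threshold with all 6 libraries. Leaving out AQP5+/+ replicate 2 gave 1.23 for Irgm1, 0.86 for Igtp, 0.88 for Iigp1, 0.68 for Gbp2 and 0.69 for Gbp6. The Gbp genes are related in sequence, so reads may have been split between them.

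The remaining induced genes were Ifi27l2a and Epsti1, described above, with Rtp4, Ifi44 and Xaf1. Rtp4, known as a chaperone of membrane receptors and a regulator of interferon responses, had 6.91, 3.43 and 8.76 FPKM in AQP5-/- glands, against 4.01, 6.43 and 1.70 FPKM in AQP5+/+ glands (log2 fold change 0.66, SE 0.46, limma adjusted p = 0.53). Its groups overlapped across most of their range. Ifi44 and Xaf1, which counters inhibitors of apoptosis, had log2 fold changes of 0.47 and 0.05. Leaving out AQP5+/+ replicate 2 gave 1.04 for Rtp4, 0.80 for Ifi44 and 0.13 for Xaf1.

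The genes around the list were taken from a list of 124 other genes of the interferon pathway, of which 122 were in the table and 92 were tested. None was called higher and 1, Mov10, was called lower by the paper's threshold with limma. At an unadjusted p under 0.05, 1 of the 92 was higher (Lgals3bp) and 3 were lower (Mov10, Irf3 and Mavs), against 3.27% and 8.12% of all genes. At the paper's threshold edgeR and DESeq2 each called 1 higher and 0 lower, against 1.22% and 1.44% of all genes higher. The log2 fold changes of the 92 had a median of 0.13, and 65 were above 0, against 33.0% of all genes. Of the 21 interferon genes listed, none reached the level required for testing. Ifng, which encodes interferon gamma, was listed at 0, 0.178 and 0.228 FPKM in AQP5-/- glands and at 0 in each AQP5+/+ library. Its AQP5-/- values rested on 0, 3 and 5 estimated fragments, too few for a comparison. Ifnz was above 0 in AQP5+/+ replicate 2 alone. The others, Ifnb1 and the Ifna genes among them, were listed at 0 in all 6 libraries.

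The receptors were expressed in every library, and 0 of the 6 tested passed the threshold. Ifnar1 and Ifnar2, the chains of the type I receptor, had log2 fold changes of -0.04 (SE 0.17) and -0.06 (SE 0.18), with limma adjusted p-values of 0.92 and 0.89. Ifngr1, a chain of the interferon gamma receptor, had 16.6, 13.9 and 14.8 FPKM in AQP5-/- glands, against 9.54, 12.9 and 12.7 FPKM in AQP5+/+ glands (log2 fold change 0.36, SE 0.16, limma adjusted p = 0.43). Its AQP5-/- libraries were all above its AQP5+/+ libraries, by less than 2-fold. Ifngr2, the other chain, had 4.12, 7.38 and 6.54 FPKM in AQP5-/- glands, against 4.20, 4.05 and 4.74 FPKM in AQP5+/+ glands (log2 fold change 0.40, SE 0.22, limma adjusted p = 0.47).

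Of the 9 genes of receptor signalling, 0 passed. Irf1, a factor induced through the GAS, had 8.40, 11.5 and 12.2 FPKM in AQP5-/- glands, against 8.10, 10.7 and 6.43 FPKM in AQP5+/+ glands (log2 fold change 0.34, SE 0.22, limma adjusted p = 0.51). None of the 6 inhibitors tested and none of the 14 genes that sense nucleic acid upstream of interferon passed.

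The one call among the other induced genes was Mov10, an RNA helicase with antiviral activity, at 5.22, 5.38 and 8.92 FPKM in AQP5-/- glands, against 15.9, 8.45 and 16.9 FPKM in AQP5+/+ glands (log2 fold change -1.003, SE 0.30, limma adjusted p = 0.43). AQP5-/- replicate 3 was above AQP5+/+ replicate 2, so the groups overlapped. The call was absent in 10 of the 18 alternatives. The groups did not overlap for 7 of the 92 pathway genes, which apart from Ifngr1 are named here after their values were seen. In 4 of them every AQP5-/- library was above every AQP5+/+ library, against 3.86% of all genes, with log2 fold changes of 0.36 for Ifngr1, 0.34 for the inhibitor Socs3, 0.25 for the adaptor Myd88 and 0.59 for Lgals3bp. In 3 every AQP5-/- library was below, against 11.1% of all genes, with log2 fold changes of -0.52 for Irf3 and -0.40 for Mavs, which carry the signal from RIG-I to the interferon genes, and -0.16 for Helz2.

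Summed levels of cell type markers also differed between libraries. The 10 macrophage markers, all tested, summed to 148 to 314 FPKM in AQP5-/- glands, against 86.1 to 152 FPKM in AQP5+/+ glands. Of them, 1 passed the threshold as higher in AQP5-/-, none was at 0 throughout, and their median log2 fold change was 0.73. The 8 B and plasma cell markers summed to 1364, 1266 and 360 FPKM in AQP5-/- glands, against 292, 737 and 297 FPKM in AQP5+/+ glands, with 7 tested and 1 called higher. The T and NK cell markers, 5 of 10 tested and 0 called, summed to 6.25 to 10.5 FPKM in AQP5-/- glands, against 3.82 to 7.14 FPKM in AQP5+/+ glands.

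Of 4 plasmacytoid dendritic cell markers, cells known for strong type I interferon release, 2 were tested and 0 called, with sums of 3.57 to 5.99 FPKM in AQP5-/- glands, against 3.29 to 7.30 FPKM in AQP5+/+ glands. The 6 neutrophil markers, with Ly6g at 0 in every library, summed to 2.33 to 7.38 FPKM in AQP5-/- glands, against 1.65 to 10.1 FPKM in AQP5+/+ glands. The 6 fibroblast markers, all tested and 0 called, summed to 80.6, 138 and 124 FPKM in AQP5-/- glands, against 94.5, 77.8 and 52.2 FPKM in AQP5+/+ glands, with a median log2 fold change of 0.64. The 6 endothelial markers, all tested and 0 called, summed to 10.1 to 14.2 FPKM in AQP5-/- glands, against 12.1 to 18.1 FPKM in AQP5+/+ glands, with a median log2 fold change of -0.44. The 9 acinar markers, Aqp5 included, were all tested, with 0 called higher and 2 lower. Those called lower were Aqp5 itself and Dmbt1 (log2 fold change -1.02, limma adjusted p = 0.43). The 9 markers were present in every library and summed to 4070, 2079 and 1700 FPKM in AQP5-/- glands, against 5033, 3017 and 5863 FPKM in AQP5+/+ glands. Most of that sum was Car6, and the 7 markers other than Car6 and Aqp5 summed to 723, 881 and 842 FPKM in AQP5-/- glands, against 1347, 827 and 1002 FPKM in AQP5+/+ glands. AQP5-/- replicate 3, the highest library for 22 members, had the highest macrophage sum of all libraries. AQP5+/+ replicate 3, the lowest library for 17 members, had the lowest fibroblast sum. Its macrophage sum of 152 FPKM was the highest of the AQP5+/+ group and above the 148 FPKM of AQP5-/- replicate 1. Lyz2 gave 69.1 and 70.2 FPKM of these sums, and the other macrophage markers were mixed. Csf1r (2.31 against 3.73 FPKM), Mrc1 and Cd14 were lower in AQP5+/+ replicate 3 than in AQP5-/- replicate 1. Cd68, Adgre1, C1qa and C1qc were higher. AQP5+/+ replicate 2, the other library with high members, was in the middle of the AQP5+/+ group for macrophage and fibroblast markers. It had the highest B and plasma cell sum of the AQP5+/+ group (737 FPKM). AQP5-/- replicate 3 had the lowest B and plasma cell sum of the AQP5-/- group (360 FPKM). The part of these cell types in the members' differences was not tested.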

How the data were processed

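Total RNA of 3 AQP5-/- and 3 AQP5+/+ lacrimal gland samples was depleted of ribosomal RNA and sequenced. Per the labels, HISAT2 2.0.4, Cufflinks and Cuffdiff 2.2.1 were used with mm10, and the authors deposited FPKM and scaled estimated counts per gene, and, from cutadapt 1.9.3 and STAR 2.5.1b, circRNA junction read counts. The strand setting of the counting was not stated, so reads of overlapping genes on opposite strands may not be separated. limma 3.58.1 (R 4.3.3, lmFit and eBayes with trend) was fitted to log2(FPKM + 0.5) of 11772 genes with a mean of at least 0.5 FPKM, with genotype as the only term. For edgeR 4.0.16 and DESeq2 1.42.0, the deposited estimated counts were divided by each library's step, which made at least 95.2% of low values whole within 0.1, and rounded. Scaled count per FPKM differed over 1.5 times between libraries for 10 members (Irf7, Dhx58, Zbp1, Oas1g, Oas2, Oas3, Oasl1, Oasl2, Mx1 and Xaf1). Full values were given for members past the threshold, the 2 most abundant members of each role group and the 10 of smallest p. The members and lists were chosen with earlier results of these data known. In all, 18 alternatives were run, and the tests were tested on simulated data. A pathway gene that the rule for named genes covers is not reported here.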

Additional observations from a re-analysis of the deposited data

How the results depend on the processing

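The genotype comparison was repeated under 18 alternatives. The number of members past the paper's threshold as higher in AQP5-/- was 3 (1.16% of all genes), lay between 1 and 7 without single libraries (0.357% to 2.40% of all genes), and was 8 with library weights (2.16%) and 1 with a term for Y-linked transcripts (0.501%). No alternative put a member past it as lower. Members at an adjusted p under 0.05 numbered 0, from 0 to 3 without single libraries, 1 with DESeq2 (Ifi27l2a) and 1 with library weights (Isg20), against 1.27% and 4.38% of all genes under these 2 settings. The members' median log2 fold change was 0.32, lay between 0.03 and 0.66 without single libraries, and was -0.30 with the term for Y-linked transcripts. The pathway genes called higher numbered 0, from 0 to 1 without single libraries, and 1 with edgeR, DESeq2, library weights or the Y-linked term. Those called lower numbered 1, from 0 to 1 without single libraries, and 0 with a pseudocount of 1, median centring, quantile normalization, edgeR, DESeq2 or the Y-linked term.

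Bst2 passed the paper's threshold under 7 alternatives and Epsti1 fell short of it with a pseudocount of 1, while Isg20 lost it with edgeR. Directions turned for 23 members under at least 1 alternative, mostly under the Y-linked term, where the log2 fold changes were -0.39 for Irf7, -0.68 for Stat2, -0.50 for Ddx58, -0.29 for Isg15, -0.92 for Usp18, -0.51 for Ifit1, -0.41 for Ifit3, -0.44 for Oas1a, -0.32 for Oas1g, -0.0698 for Oas2, -0.43 for Oasl1, -0.28 for Oasl2, -0.31 for Rsad2, -0.55 for Gbp2, -0.77 for Gbp6, -0.49 for Igtp, -0.31 for Irgm1, -0.24 for Iigp1, -0.20 for Ifi44, -0.10 for Rtp4 and -0.10 for Xaf1. This term leaves AQP5+/+ replicate 2 as the only AQP5+/+ library set against the AQP5-/- libraries. Oas1g was at -0.0397 with a pseudocount of 1 and -0.0234 with quantile normalization. Library weights gave 0.12 for Dhx58 and 0.24 for Mx1, and Mx1 was at 1.06 with edgeR and 1.04 with DESeq2. Without single libraries, the log2 fold changes ranged from -0.36 to 0.29 for Irf7, -0.29 to 0.46 for Stat2, -0.13 to 0.51 for Ddx58, -0.43 to 0.18 for Dhx58, -0.20 to 0.82 for Ifit1, -0.39 to 0.60 for Ifit3, -0.0780 to 0.55 for Oas1a, -0.54 to 0.38 for Oas1g, -0.43 to 0.34 for Oasl2, -0.91 to 0.0780 for Mx1, -0.0258 to 0.78 for Rsad2, -0.0942 to 0.68 for Gbp2, -0.10 to 0.69 for Gbp6 and -0.23 to 0.22 for Xaf1. The cause of these turns was not tested.

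With the replicate number as a block, 3 members passed the threshold, 0 had an adjusted p under 0.05, 0 pathway genes were called higher and 1 lower, and the median log2 fold change stayed at 0.32, so no call changed. Same-numbered libraries deviated weakly in opposite ways (correlations -0.14, -0.18 and -0.15), and differently numbered ones reached 0.21. Deviations from the mean of 3 libraries constrain each other, so these correlations cannot decide whether the numbers pair the libraries. Median centring removed the shift of -0.12 in all genes and gave the members a median of 0.46, with 172 higher and 58 lower calls over all genes, against 136 and 104 without centring. With 3 libraries per genotype, a p that missed the threshold does not show that levels were alike, and the weakest members rested on few fragments.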
